A study of Mus musculus with 8 samples.

Results

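The solute carriers (Slc and Slco genes) are the membrane proteins that move amino acids, sugars, metals, other ions, vitamins and metabolites into cells and between their compartments. They were examined here in the transcripts bound by YTHDF3, a cytoplasmic reader protein of N6-methyladenosine (m6A) in mRNA, in mouse embryonic fibroblasts (MEFs). The members were the peaks whose deposited gene name is that of a solute carrier. These were 2146 of the 87940 deposited peaks and bore the names of 182 of 8627 genes. RNA bound to endogenous YTHDF3 was immunoprecipitated (IP) with an antibody, and each IP library was compared with input RNA taken without an antibody. The MEFs were wild-type C57BL/6 cells isolated at embryonic day 13.5 and used at passages 5 to 6. Normal MEFs stayed in high-glucose medium with serum, and starved MEFs were kept for 2 h in nutrient-deprived medium, with 2 replicates per condition. The labels do not say whether the replicates came from separate embryos, so that the spread between them may be technical.

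Cells keep amino acid and glucose uptake under tight control, since both nutrients feed growth signalling through mTORC1 at the lysosome, and lack of amino acids is a classical trigger of autophagy. Among the carriers, the SLC7 and SLC38 families bring cationic and neutral amino acids into fibroblasts, SLC2 proteins carry sugars by facilitated diffusion, and the SLC30, SLC39 and SLC41 families move zinc and magnesium. The transcripts of many carriers change within hours of a change in nutrients. YTHDF proteins bind m6A mainly in the long last exons and 3' untranslated regions (UTRs) of mRNAs, often within sequences that contain GGAC.

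After the thresholds of the study (IP/input fold of at least 2 and p under 0.0001) 2134 of 87096 peaks remained, and overlapping peaks of the 4 lists were merged into 984 carrier regions of 39979 regions in all. The numbers of carrier genes with a peak were 127 and 126 in normal replicates 1 and 2, and 141 and 141 in starved replicates 1 and 2. Over all genes the counts were 5483 and 5653 in the normal lists, and 6560 and 6225 in the starved lists, so that the rise in carrier genes went with a rise in all genes. Carrier peaks held 2% and 1.42% of the IP reads in peaks in normal MEFs and 1.62% and 1.52% in the starved lists. Only reads within peaks are listed, from 8818619 to 19271667 IP reads per list, and the depth of the libraries is unknown. A total of 173 carrier regions in 54 genes were called in all 4 lists, 17.6% of the carrier regions beside 16.3% of all regions. Of 10 fibroblast markers, 3 to 5 had a peak in a list, with Col3a1 and Pdgfrb in every list, and none of the 4 epithelial markers had one. The 8 regions under the name of the macrophage marker Csf1r all lay on exons of its neighbour Pdgfrb, and Kdr of endothelial cells had at most 5 input reads in its peaks in any list. RNA from fewer cells cannot be told apart from less RNA per cell in such bulk samples.

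The deposited name is that of the gene with the nearest promoter, and it did not always match the transcript under the peak. Of the 984 carrier regions, 586 (59.6%) overlapped an exon of the gene that named them in the GENCODE annotation of the mouse genome build mm10. Among the regions called in all 4 lists it was 121 of 173, in 37 genes. The 12 regions named for the transporter gene Slc29a4 on exons of Tnrc18, the 6 regions named Slc25a34 on exons of Plekhm2 and the 5 regions named Slc10a4 on exons of Fryl belong to this kind. The members also include names that are no carriers, such as Slc7a6os. The gene for the glucose-6-phosphate transporter, Slc37a4, was named for 2 regions on exons of Hyou1, a chaperone of the endoplasmic reticulum, and had none on its own exons. Counts over all 173 regions are therefore given with those over the 121 regions on the exons of their own gene, and named genes are described by the latter. Counted by the exonic part of each region, with any intron left out, 55 of the 121 regions lay on coding sequence alone. A further 50 covered coding and untranslated sequence, 14 lay in the 5' UTR alone and 2 in the 3' UTR alone.

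The sequences below show the kind of RNA that carried the peaks of the leading amino acid carriers, the regions that were called in normal MEFs alone, the region with the largest change and the metal carrier with the smallest p in the input test. They were read from the mm10 genome on the transcribed strand, 5' to 3', with GGAC in capitals, and each is a stretch of 30 bases of an exon around the GGAC nearest to the middle of the best 200 bp window that the peak caller gave for the largest peak of the region, except for Slc36a1, of which the whole exon is given. For Slc7a1, Slc38a1 and Slc38a7 the GGAC lay inside that window, and for Slc7a5 and Slc39a9 it lay outside.
Slc7a1, 3' UTR, chr5:148328175-148328204, minus strand: aaggagccttcctGGACcatcctgttacac
Slc38a1, 3' UTR, chr15:96572606-96572635, minus strand: tgtttctctctcaGGACcgcaggtctgaga
Slc7a5, coding exon, chr8:121907341-121907370, minus strand: agcggggtcgcccGGACtgtcgctcgtggt
Slc38a7, 3' UTR, chr8:95837408-95837437, minus strand: gccgcagatctgtGGACggctcccgcccag
Slc36a1, coding exon of 89 bases, chr11:55219580-55219668, plus strand: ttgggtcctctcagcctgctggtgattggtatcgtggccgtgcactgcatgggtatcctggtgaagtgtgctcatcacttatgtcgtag
Slc39a9, 5' UTR, chr12:80644134-80644163, plus strand: ggcggcaatataaGGACctggccgataggt
The Slc36a1 exon holds no GGAC. GGAC was found on the transcribed strand of the best 200 bp window in 70 of the 121 carrier regions (57.9%) and in 3827 of 6460 regions of all genes on an exon (59.2%). On the opposite strand the shares were 54.5% and 55.9%. By class the transcribed strand held it in 28 of 46 windows of amino acid carriers, 9 of 17 of sugar carriers, 10 of 15 of metal carriers and 23 of 43 of other carriers.

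The amino acid carriers had 46 regions in 10 genes called in all 4 lists on their own exons. Of these, 16 had a lower fold in starved MEFs in both replicates and 6 a higher fold in both. Over all 6531 regions the shares were 25.4% lower and 28% higher in both. Those 6531 regions were not restricted to exons of the gene that names them. Without that restriction, 16 of 48 amino acid regions were lower in both and 7 higher in both. The 16 include 8 regions of Slc36a1, 3 of Slc7a1 and 3 of Slc1a4. In the leading regions of Slc7a1, Slc38a1 and Slc1a4 the change lay within the spread of the replicates. Slc7a1 encodes CAT1, the main carrier of arginine and lysine in fibroblasts. Counted over regions that bear a carrier's name and lie on its own exons, Slc7a1 led every list with 13.1% to 14.9% of the IP reads. It had 12 and 12 regions in the normal lists, and 11 and 12 in the starved lists, of which 11 were called in all 4 lists. Its leading region, chr5:148327541-148332770, covered coding and untranslated sequence, and it held 8571 and 12031 IP reads in the normal lists, and 12333 and 15014 in the starved lists. The IP/input folds were 2.26 and 2.67 in the normal lists, and 2.21 and 2.79 in the starved lists, so that the replicates differed more than the conditions. The fitted log2 change of the ratio was -0.02 ± 0.17 (SE).

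**Figure D1:**
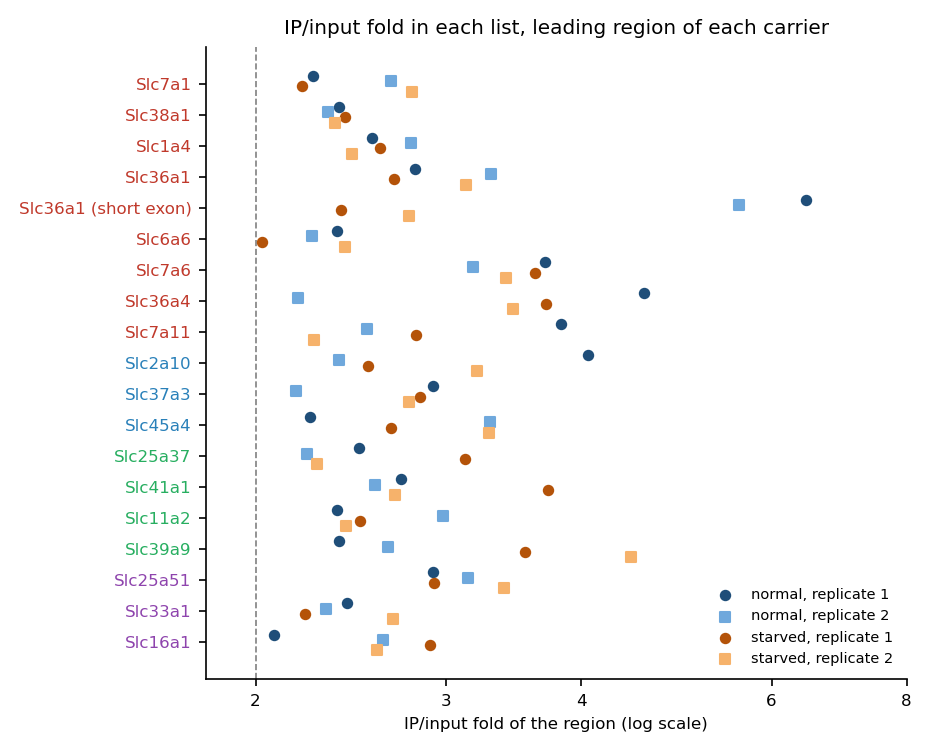
IP/input fold (x axis, log scale) of the leading region of 18 carriers, and of the Slc36a1 region on the short exon, in each of the 4 peak lists. Circles are replicate 1, squares replicate 2, blue normal and orange starved, and gene names are coloured by class (red amino acid, blue sugar, green metal, purple other). The dashed line is the fold of 2 needed for a peak. The normal and starved points overlap for most carriers. For Slc36a1 on the short exon the normal points are at 6.45 and 5.6 and the starved points at 2.4 and 2.77.

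Slc38a1 encodes SNAT1, a sodium-coupled carrier of glutamine. Its leading region, chr15:96571411-96576910, was covered over 5300, 5430 and 3950 bp in normal replicate 2 and both starved lists, with 5739, 5777 and 5924 IP reads, but over 280 bp with 77 IP reads in normal replicate 1. The folds were 2.39 and 2.33 in the normal lists, and 2.42 and 2.37 in the starved lists, log2 changes of 0.02 in each replicate. Slc1a4, the neutral amino acid carrier ASCT1, had folds of 2.56 and 2.78 in the normal lists, and 2.61 and 2.46 in the starved lists over its leading region, chr11:20302231-20304740. Its 2666 and 1896 IP reads in the normal lists, and 5589 and 3400 in the starved lists corresponded to a fitted log2 change in IP reads per base of 0.26 ± 0.30 (SE), within the spread of the replicates.

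Slc36a1 encodes PAT1, a proton-coupled amino acid carrier of lysosomes and the plasma membrane, and it was the single carrier past the 1.8-fold rule. Under the rule, the IP/input fold had to move 1.8-fold or more, and the same way, in each replicate. No carrier region was higher in starved MEFs by this rule, beside 0.23% of all 6531 regions, and 1 was lower, beside 0.322% of all regions. It was chr11:55219481-55219890, which spans the coding exon of 89 bases given above and the introns next to it. There it held 88 and 28 IP reads with 11 and 5 input reads in the normal lists, and 112 and 79 IP reads with 20 and 19 input reads in the starved lists. The folds were 6.45 and 5.6 in the normal lists, and 2.4 and 2.77 in the starved lists. The log2 changes were -1.43 and -1.01 within the replicates, and the fitted change of the ratio was -1.29 ± 0.50 (SE), with an unadjusted p of 0.018 and an adjusted p of 0.999 in the quasi-likelihood test of edgeR. The IP reads per base of the same region changed by a log2 of 0.05 ± 0.38 (SE) and the input reads per base by 1.31 ± 0.71 (SE), so that the lower ratio went with more input reads, which number from 5 to 20. The best window of this region lay in the intron after the exon.

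In the other 8 regions of Slc36a1 the log2 changes lay between -0.44 and -0.03 in replicate 1 and between -0.78 and 0.68 in replicate 2. Of its 9 regions called in all 4 lists, 8 had a lower fold in starved MEFs in both replicates, where 25.4% of all regions did. Regions of 1 transcript share their libraries and are not replicates. Summed over the 9 regions the folds were 2.97 and 3.20 in the normal lists, and 2.67 and 2.92 in the starved lists, log2 changes of -0.15 and -0.14. The leading region, chr11:55232201-55236340, had folds of 2.81 and 3.30 against 2.69 and 3.13.

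In the remaining amino acid carriers listed for description the fitted change of the ratio in the leading region was within 1 SE of 0. Slc6a6, the taurine carrier, had 983 and 1079 IP reads in the normal lists, and 1272 and 1238 in the starved lists on its leading region. Its folds were 2.38 and 2.26 in the normal lists, and 2.03 and 2.42 in the starved lists, lower in replicate 1 and higher in replicate 2. Slc7a6, the subunit y+LAT2 that exchanges cationic for neutral amino acids, had folds of 3.71 and 3.18 against 3.63 and 3.41. It had 3 regions in all 4 lists under its own name, and 4 further regions on its exons were named for Slc7a6os, its neighbour on the opposite strand. Slc36a4, a relative of PAT1, had folds of 4.57 and 2.19 against 3.71 and 3.46. Slc7a11, the cystine-glutamate exchanger xCT, had folds of 3.83 and 2.54 against 2.81 and 2.26, with 76 and 71 IP reads in the normal lists, and 243 and 129 in the starved lists. In each of these genes the normal and starved folds overlapped, or the replicates of a condition lay further apart than the conditions.

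**Figure D2:**
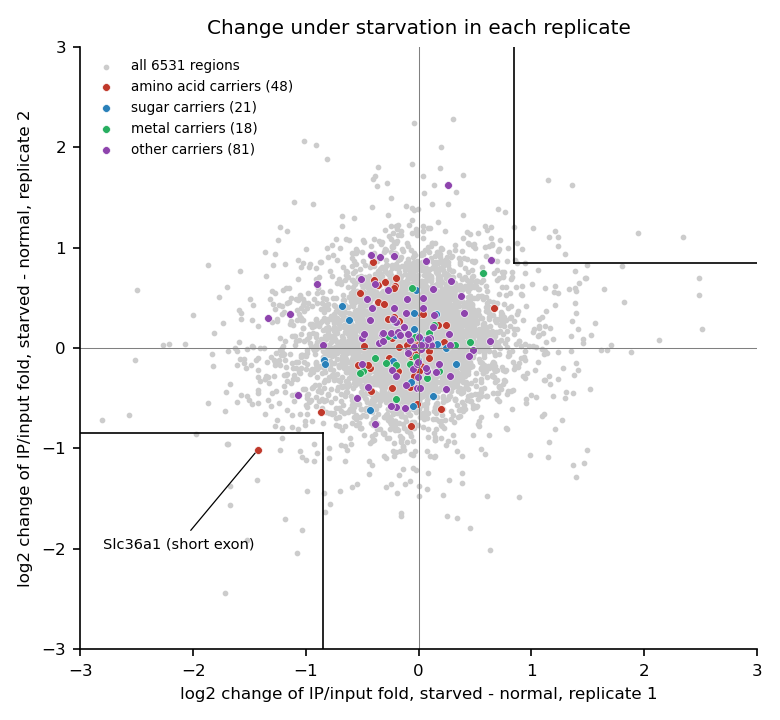
Change of the IP/input fold (log2, starved minus normal) in replicate 1 (x axis) and in replicate 2 (y axis) for the 6531 regions called in all 4 lists (grey, 1 lies outside the axes) and for the carrier regions, coloured by class. Black lines bound the corners past 1.8-fold in both replicates. The carriers lie among the other regions, and 1 of them, the Slc36a1 region at -1.43 and -1.01, lies in a corner.

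The direction of the amino acid carriers differed between the replicates. In replicate 1, 16 of the 62 amino acid regions called in both of its lists had a higher fold in starved MEFs (25.8%), beside 95 of 257 carrier regions (37%) and 41.6% of all regions shared by its lists. With the log2 folds centered on the median of each list the carrier share in replicate 1 was 47.1%, and on the exons of their own gene, without centering, it was 29.3%. In replicate 2 it was 39 of 75 amino acid regions (52%), beside 173 of 342 carrier regions (50.6%) and 53.2% of all regions. Without centering, the share under 50% in replicate 1 did not recur over these regions in replicate 2. On the exons of their own gene the carrier share in replicate 2 was 49.8%, and with centering it also lay under 50%. Over the 46 amino acid regions on their own exons in all 4 lists the median log2 change was -0.18 in replicate 1 and 0.02 in replicate 2. The medians were -0.05 and 0.07 over all 6531 regions, which were not restricted to own exons. Over all 173 carrier regions, 36 were higher in both replicates and 51 lower in both, where 28% of all regions were higher and 25.4% lower in both. Of the 121 regions on the exons of their own gene, 15 were higher in both and 38 lower in both. Regions of 1 gene share their transcript and are not independent.

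Among the amino acid carriers, 11 regions were called in normal MEFs alone and 3 in the starved lists alone. No test was made of these counts. Over all carriers, 24 regions were called in both normal lists and in neither starved list (2.44%), beside 1.3% of all regions, and 30 were called in both starved lists and in neither normal list (3.05%), beside 4.7% of all regions. Of the carrier regions on their own exons it was 20 and 17. The 11 amino acid regions were 7.43% of the 148 of their class on their own exons, a restriction that was not made for all regions. These 11 regions lay in Slc7a5 (4), Slc38a7 (3), Slc36a4 (2), Slc1a4 (1) and Slc38a10 (1). A region outside a list has no value in it, and absence from a list means only that it did not pass the thresholds there. The 20 regions had a median fold of 2.63 and 2.42 in the normal lists, while all 518 regions called in normal MEFs alone had medians of 3.44 and 2.75.

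**Figure D3:**
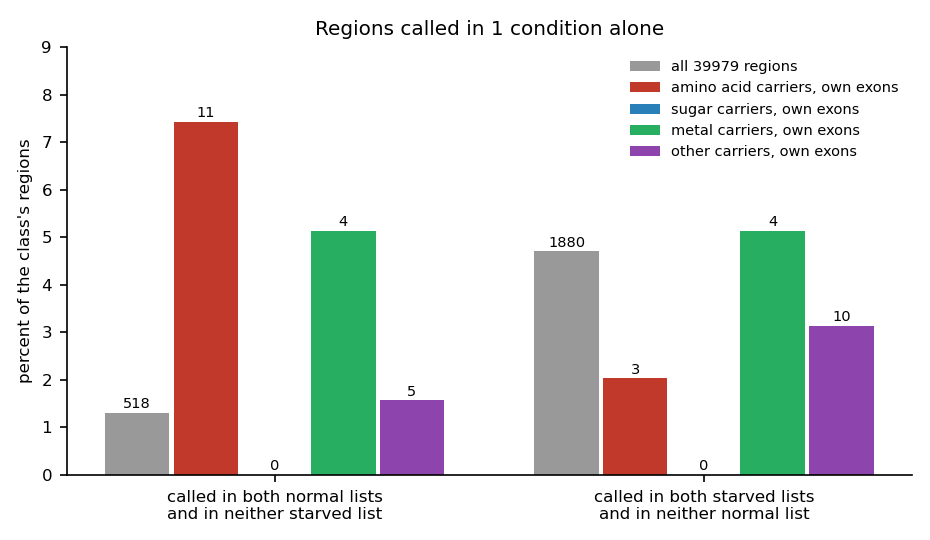
Percent of the regions of each class (y axis) called in both lists of 1 condition and in neither list of the other, for all 39979 regions (grey) and for carrier regions on the exons of their own gene (colours). The grey bars are not restricted to such exons. Numbers above the bars are regions. For amino acid carriers 11 regions were called in normal MEFs alone and 3 in starved MEFs alone, while over all regions it was 518 and 1880.

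Slc7a5 encodes LAT1, which brings leucine and other large neutral amino acids into cells and with Slc3a2 forms the exchanger that feeds mTORC1. It is described after its values were seen, as are Slc38a7, Slc38a2, Slc1a5, Slc6a9, Slc2a1, Slc2a3, Slc37a3, Slc45a4, Slc39a9, Slc30a4, Slc25a51, Slc33a1, Slc35b4 and Slc26a2. It had 8 and 4 regions on its exons in the normal lists, and 0 and 1 in the starved lists. The largest, chr8:121906831-121907810 over coding and untranslated sequence, held 4349 and 2742 IP reads in the normal lists, with folds of 2.38 and 2.18, and was in neither starved list. The other 3 regions shared by the normal lists had folds of 2.02 to 2.41. The single region of Slc7a5 in a starved list had 878 IP reads and a fold of 2.01 in starved replicate 2, and it was called in normal replicate 1 with 739 IP reads and a fold of 2.36. Summed over its regions the folds were 2.36 and 2.16 in the normal lists and 2.01 in the starved list that called it. Slc3a2 named no peak in any list.

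Slc38a7, a lysosomal exporter of glutamine and asparagine, had 9 and 7 regions in the normal lists, and 2 and 6 in the starved lists. Of its 3 regions in the normal lists alone, the largest held 847 and 641 IP reads with folds of 2.43 and 2.71, and 1 further region of the gene was called in starved MEFs alone, with 148 and 107 IP reads. Slc38a2, the glutamine carrier SNAT2 that is induced when amino acids are scarce, divided by replicate number instead of condition. It had 4 regions with 11668 IP reads in normal replicate 2 and 5 regions with 19233 IP reads in starved replicate 2, but no region in normal replicate 1 and 1 of 17 IP reads in starved replicate 1. Slc1a5, the glutamine carrier ASCT2, had 6 regions in normal replicate 1 and 0 in normal replicate 2, with 1 and 2 in the starved lists. Slc6a9, a glycine carrier, had 4 and 0 regions in the normal lists, and 0 and 1 in the starved lists. For Slc1a5 and Slc6a9 the regions came mostly from normal replicate 1, and normal replicate 2 had none.

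**Figure D4:**
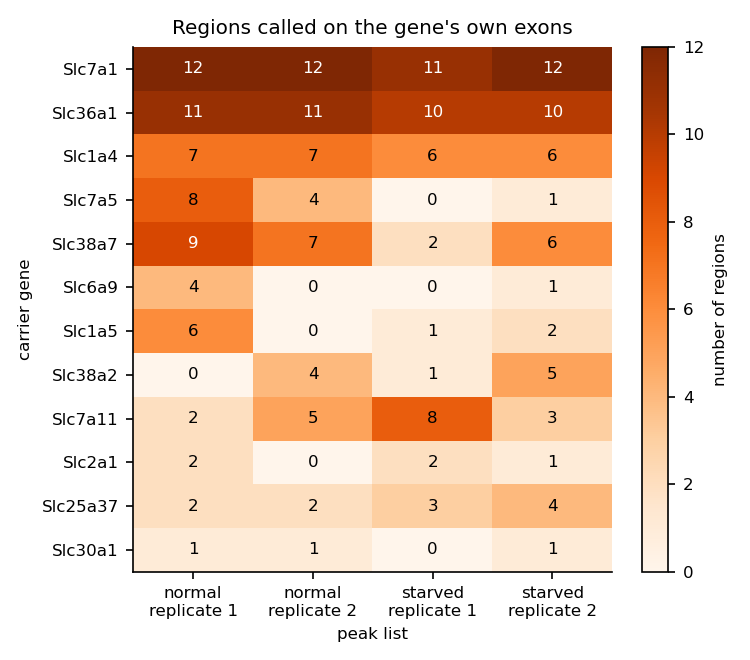
Number of regions called on the exons of 12 carrier genes (rows) in each peak list (columns), with darker colour for more regions. Slc7a1, Slc36a1 and Slc1a4 have nearly the same number in the 4 lists, Slc7a5 has 8 and 4 in the normal lists, but 0 and 1 in the starved lists, and Slc38a2 has 4 and 5 in the lists of replicate 2 against 0 and 1 in those of replicate 1.

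Among the sugar carriers, 17 regions in 3 genes were called in all 4 lists on their own exons. None of their 42 regions on own exons was called in both lists of 1 condition alone. Over all regions, not restricted to own exons, 1.3% were called in the normal lists alone and 4.7% in the starved lists alone. Slc2a10 encodes GLUT10, a facilitative carrier linked to the arterial wall and to vascular connective tissue. Its leading region, chr2:165514271-165515860, held 977 and 562 IP reads in the normal lists, and 1008 and 596 in the starved lists. The folds were 4.06 and 2.39 in the normal lists, and 2.54 and 3.20 in the starved lists, lower in replicate 1 and higher in replicate 2. The IP reads per base changed by a log2 of -0.72 ± 0.41 (SE), with an adjusted p of 0.652 in edgeR. Slc45a4 had folds of 2.25 and 3.29 against 2.67 and 3.29 in its leading region, and Slc37a3, of the sugar-phosphate exchanger family, 2.92 and 2.18 against 2.84 and 2.77. Slc2a1, the gene of the main glucose carrier GLUT1, had no region in normal replicate 2, but 4991 IP reads in normal replicate 1 and 5506 in starved replicate 1 in a region over coding and untranslated sequence, with folds of 2.22 and 2.13. In starved replicate 2 the same gene had 1 region of 1850 IP reads on coding sequence. Slc2a3, which encodes the neuronal glucose carrier GLUT3, had at most 53 IP reads in any list.

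The metal carriers had 15 regions in 8 genes in all 4 lists on their own exons. Of their 78 regions on own exons, 4 (5.13%) were called in normal MEFs alone and 4 (5.13%) in starved MEFs alone. Over all regions, not restricted to own exons, the shares were 1.3% and 4.7%. No test was made of these counts. Slc39a9 encodes the zinc importer ZIP9. Its leading region under its own name, chr12:80643931-80645170, had the smallest adjusted p of the carriers in the input test. It held 209 and 251 input reads in the normal lists, and 118 and 154 in the starved lists, and 619 and 665 against 978 and 1028 IP reads. The folds were 2.39 and 2.65 in the normal lists, and 3.55 and 4.45 in the starved lists. The fitted log2 change was -1.10 ± 0.32 (SE) for input reads per base, with an adjusted p of 0.18, and 0.63 ± 0.22 (SE) for the ratio, with an unadjusted p of 0.0106 and an adjusted p of 0.999, all in edgeR. The higher ratio thus went with fewer input reads per base, while IP reads per base changed by -0.45 ± 0.22 (SE). The region also covers 411 bp of exons of Erh, which lies on the opposite strand with its start inside the region. The libraries were made with a kit that keeps the strand, but whether reads were counted by strand is not given in the sources used here, and the deposited values do not separate the strands. The second region of Slc39a9 had log2 changes of the fold of -0.06 and 0.59. A further 2 regions that overlapped its exons in all 4 lists were named Plekhd1os. The larger, chr12:80679301-80683390, held 1921 and 3452 IP reads in the normal lists, and 3194 and 3469 in the starved lists. The log2 changes of the fold were 0.22 and -0.32 in the larger, and 0.14 and 0.51 in the smaller.

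Slc41a1, a magnesium carrier, had 5 regions in all 4 lists, and its leading region had folds of 2.73 and 2.58 in the normal lists, and 3.73 and 2.69 in the starved lists. This was the single region of the gene that was higher in both replicates, while 3 were lower in both, and summed over the 5 regions the log2 changes were 0.06 and -0.10. Slc25a37 encodes mitoferrin-1, which takes iron into mitochondria. Its region in all 4 lists had folds of 2.49 and 2.23 against 3.13 and 2.28. A further region of the gene with 619 and 771 IP reads was called in both starved lists alone, with folds of 2.39 and 2.10, and another with 167 and 179 IP reads in both normal lists alone, with folds of 2.28 and 2.08. Slc11a2, the iron importer DMT1, had folds of 2.38 and 2.98 against 2.50 and 2.43. The zinc exporter gene Slc30a4 was lower in both replicates in each of its 2 regions, by log2 changes of -0.49 and -0.23 in the leading one, with a fitted change of the ratio of -0.40 ± 0.24 (SE).

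The other carriers had 43 regions in 16 genes in all 4 lists on their own exons. Slc25a51, the carrier of NAD+ into mitochondria, led them with 6042 and 8044 IP reads in the normal lists, and 13194 and 13092 in the starved lists in its leading region, chr4:45395991-45400410. Its folds were 2.92 and 3.14 in the normal lists, and 2.92 and 3.39 in the starved lists, and the fitted change of the ratio was 0.03 ± 0.17 (SE). This region contains repeated sequence, with stretches of up to 916 bp that have copies of at least 95% identity elsewhere in the genome. Slc33a1 encodes the acetyl-CoA carrier of the endoplasmic reticulum. Its region chr3:63963291-63964750 held 2059 and 1956 IP reads in the normal lists, and 2166 and 1673 in the starved lists, and 684 and 841 against 418 and 416 input reads. IP reads per base changed by a log2 of -0.79 ± 0.24 (SE) and input reads by -0.80 ± 0.30 (SE), with adjusted p of 0.312 and 0.404 in edgeR, neither past 0.05. The ratio changed by 0.01 ± 0.19 (SE), with folds of 2.43 and 2.33 against 2.22 and 2.68. An exon of Gm26850, an antisense gene on the opposite strand, covers 1118 bp of this region. Slc12a2, the sodium-potassium-chloride cotransporter NKCC1, had folds of 3.36 and 4.32 against 2.40 and 4.74, with the normal folds inside the range of the starved ones. Slc16a1, the lactate carrier MCT1, had folds of 2.08 and 2.62 against 2.90 and 2.59 on its 5' UTR, with 98 to 203 IP reads per list. Slc35b4, of the nucleotide sugar carriers of the Golgi, had 6 regions in all 4 lists, 0 of them changed in the same direction in both replicates.

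**Figure D5:**
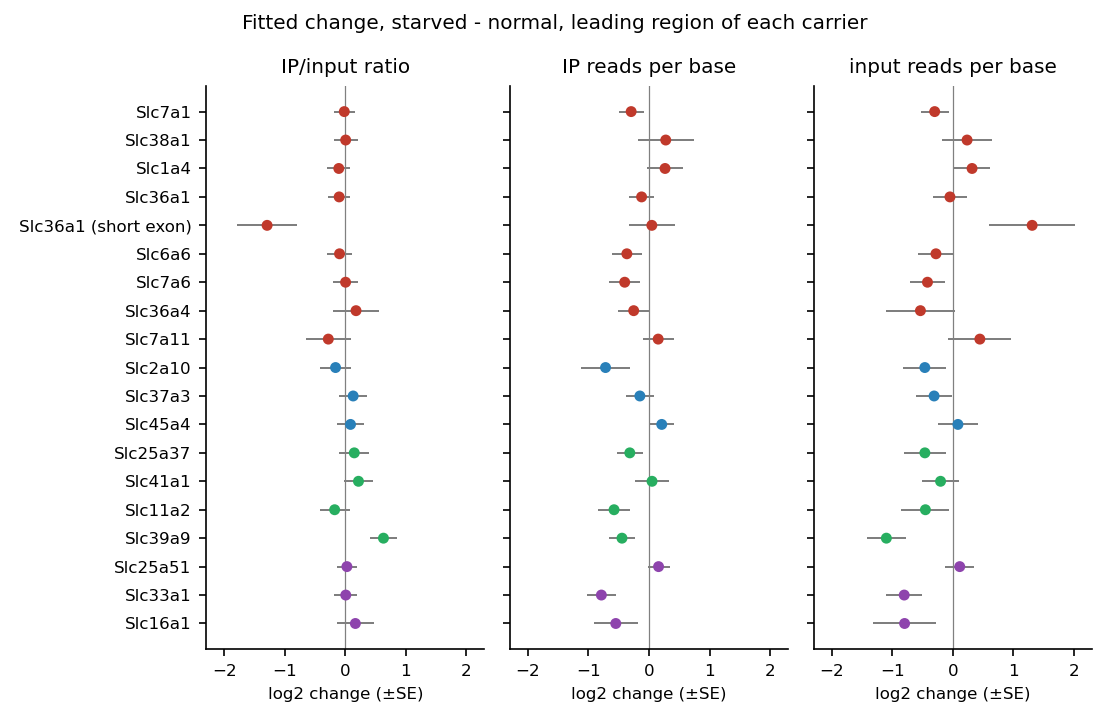
Fitted log2 change between starved and normal MEFs (points, ± SE) of the IP/input ratio, the IP reads per base and the input reads per base in the leading region of 18 carriers and in the Slc36a1 region on the short exon, with positive values higher in starved MEFs and colours by class as in the plot of folds. The ratio of most carriers lies within 1 SE of 0, and Slc33a1 is at -0.79 and -0.80 in IP and input reads with a ratio at 0.01.

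No carrier region passed an adjusted p of 0.05 in any of the 3 edgeR tests. In the test of the IP/input ratio, 0 carrier regions were higher and 0 lower, beside 0.0153% and 0% of all 6531 regions. At an unadjusted p under 0.05, 2 were higher and 2 lower, beside 1.26% and 1.55% of all regions. In the test of IP reads per base the counts were 0 higher and 0 lower, beside 0.0919% and 0.75% of all regions, with 1 higher and 8 lower at an unadjusted p under 0.05, beside 2.8% and 7.04%. In the test of input reads per base they were 0 and 0, beside 0.23% and 0.995%, with 0 and 3 at an unadjusted p under 0.05, beside 2.83% and 5.19%. DESeq2 and limma also called 0 carrier regions in each of the 3. Some carrier regions on their own exons had an unadjusted p under 0.05 in at least 1 of the 3 edgeR tests. They lay in Slc36a1, Slc39a9, Slc33a1, Slc2a10, Slc35b4, Slc35e2, Slc12a2 and Slc26a2. These genes are named as a description only, since no share of all regions was taken for the 3 tests together. The sulfate carrier gene Slc26a2 had folds of 3.54 and 4.38 in the normal lists, and 2.43 and 3.10 in the starved lists in that region, and a fitted change of the ratio of -0.56. Slc26a2 was lower in starved MEFs in both replicates in 3 of its 4 regions. On the log2 scale, the median SE of the 173 carrier regions was 0.27 for the ratio, 0.27 for the IP test and 0.40 for the input test.

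Reads were also summed over the regions under each carrier's own name on its exons in all 4 lists. By these sums, 7 of 37 carriers had a higher IP/input fold in starved MEFs in both replicates and 7 a lower fold in both. The remaining 23 moved in opposite directions. Such sums were not made for all genes, so that no share over all genes stands beside these counts. By the smaller of the changes in the replicates Slc39a9 had the largest change of these sums. Its folds were 2.40 and 2.72 in the normal lists, and 3.22 and 4.46 in the starved lists. No test was made of the sums, which leave out regions on a carrier's exons under another gene's name. For Slc39a9 the larger region of this kind held more IP reads than the leading region. The log2 changes there were 0.22 and -0.32, so that the rise did not recur in replicate 2. The ATP-binding cassette transporters, another class of membrane transporters, had 8 regions in all 4 lists with median log2 changes of 0.09 and 0.15, and the ATP-driven ion pumps and flippases had 25 with -0.06 and 0.04, beside -0.08 and 0.04 for the 173 carrier regions. Of the 42 nutrient carriers listed for description, 35 named a region, 34 had a region on their own exons and 14 had one in all 4 lists.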

How the data were processed

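YTHDF3 RIP-seq peak lists of 4 IP libraries of MEFs were used, 2 normal and 2 starved. The authors used Trimmomatic for trimming and TopHat2 2.0.13 for alignment to mm10 (submitters' processing notes). They called peaks of each IP against input with diffReps and named them with HOMER. The input behind each list is not named in the sources used here, and the list of each sample was taken as labelled. The deposited values are, for 1 list, the read count per peak, and for the other 3 a signal, which is the reads per peak times 1 factor per library. Whole input reads came back for 100% of the values (tolerance 0.05 read). The authors also deposited the log2 fold of IP over input and the p-value of each peak; these were used only for the thresholds of 2-fold and p of 0.0001.

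Peaks that overlapped by at least 1 bp across lists were merged, reads were summed per region and list, and folds used an input floor of 3 reads. Regions called in all 4 lists were fitted with edgeR 4.0.16 (quasi-likelihood, Benjamini-Hochberg over 6531 regions) in R 4.3.3 for the IP/input ratio and for IP and input reads per base; a region had to be a peak in every list, so that regions lost in 1 condition were not tested. DESeq2 1.42.0 and limma 3.58.1 were alternatives. The code was tested on simulated data with 200 changed regions. Of regions changed 1.5-fold, 0% were recovered in each of the 3 tests. Of those changed 2-fold, 45% were recovered in the ratio test, 25.5% in the IP test and 6% in the input test. At 4-fold the shares were 96%, 99.5% and 71.5%. An absence of calls therefore says little about changes of 2-fold or less. Exons came from GENCODE, and sequence from the reference genome with bedtools 2.31.1; copies were sought with blastn 2.17.0.

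The members, carrier classes and lists were chosen with earlier results of these data known. Genes described were the nutrient carriers listed for description with a region in all 4 lists and the regions past a threshold, each by its region with the most IP reads. The depth of the libraries is unknown, and p-values measure only the spread between these samples.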

Additional observations from a re-analysis of the deposited data

Results flagged for a closer look

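A total of 56 regions called in all 4 lists overlapped exons of 27 carrier genes but bore the name of another gene. An overlap of any length counted, and exons of other genes may cover more of a region. The carrier counts above leave these regions out, while the tests and shares over all 6531 regions include them. Among them were 2 regions that overlapped exons of Slc5a3, the inositol carrier, and were named Mrps6. These 2 regions held 6020 and 9809 IP reads in the normal lists and 8526 and 8720 in the starved lists. A region that overlapped an exon of Slc39a5, named Mir6915, held 16519 and 21263 against 26999 and 25688 IP reads. The reads were not assigned to a transcript. Over the 56 regions the median log2 change of the IP/input fold was -0.09 in replicate 1 and 0.08 in replicate 2. Of these regions, 17 were higher and 13 lower in both replicates, beside 28% and 25.4% of all regions, and 0 passed the 1.8-fold rule. The edgeR tests called 0 of them, with 2 at an unadjusted p under 0.05 in the ratio test (1.26% of all regions higher and 1.55% lower), 5 in the IP test (2.8% and 7.04%) and 3 in the input test (2.83% and 5.19%).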

How the results depend on the processing

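Of 128 alternative values of the main counts, 113 stayed on the same side of the threshold or within 1.5 times and 15 moved. By the 1.8-fold rule, a fold of at least 4 left 0 lower, and a cutoff of 1.5 gave 1 higher and 2 lower. Leaving out replicates ranged from 0 to 7 higher and from 1 to 7 lower, the 7 higher without replicate 1 and the 7 lower without replicate 2. These counts stand without the shares of all regions at the same settings, and are not read as a result about the carriers. The share higher in replicate 2 of 50.6% fell below 50% with a fold of at least 4 (45.2%), the peak with the highest fold (49.4%), folds centered on each list's median (47.7%) and regions on the exons of their own gene (49.8%, chosen after seeing the data), and in replicate 1 the share of 37% ranged from 29.3% (own exons) to 47.1% (centered). With a fold of at least 4, 76 carrier genes had a peak in normal replicate 1 and 76 in starved replicate 2. In the IP test, leaving out 1 library gave 0 to 1 higher and 0 to 3 lower, all without normal replicate 2 (edgeR: Slc38a1 1.33, adjusted p 0.0216, Slc39a3 -1.33, adjusted p 0.00469, Slc2a10 -1.21, adjusted p 0.0128, and Slc7a6 -1.06, adjusted p 0.0499). With the replicate number as a block, edgeR called 1 carrier region lower in the IP test (Slc33a1, -0.79, adjusted p 0.026) and 2 lower in the input test (Slc39a9, -1.09, adjusted p 0.0108, and Slc33a1, -0.82, adjusted p 0.0122), and 0 in the ratio test; the labels share only a number, and with 2 pairs the pairing could not be established (r of the replicate differences over 6531 regions 0.278 for the fold, 0.451 for IP and 0.228 for input). Of 464 alternative values of named regions, 36 had the other sign. The causes were not tested.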
